A study of Mus musculus and Homo sapiens with 32 samples.

Results

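Nufip2, Zbed6, Mga and Rif1 are 4 mouse genes with long transcripts whose RNA was strongly enriched by an antibody against N6-methyladenosine (m6A) in wild-type embryonic stem cells. They were chosen by name for the fold that the deposited wild-type peak list gives them, and they are 4 of the 11200 genes with a listed position on the mm9 genome. The wild-type enrichment is therefore a description here and was not tested. The label "most enriched long transcripts" holds for 3 of them on that fold, since among the 1478 genes of at least 5000 listed exonic bp with a wild-type peak Nufip2 ranked 1, Zbed6 ranked 2 and Mga ranked 4, whereas Rif1 ranked 53.

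In m6A-CT the anti-m6A antibody directs a transposase to RNA paired with its cDNA inside nuclei, and input libraries are tagmented without antibody. The series holds 32 libraries in 16 groups of 2. The libraries of these genes came from the E14 mouse embryonic stem cell line (100K, 25K or 5K nuclei), from expanded potential stem cells (EPSC) of the E14 line (100K) and from CF1 mouse embryonic fibroblasts (MEF, 100K), all with an antibody from Synaptic Systems, and from embryonic stem cells of a C57BL/6 wild-type line and a C57BL/6 Mettl3-/- line (Mettl3 KO), both with an antibody from MilliporeSigma. The number of nuclei in the genotype set, the mouse ages, whether Mettl3 KO is a single clone and whether the libraries of a group are separate cultures were not given in the sources used here. Each peak list and each table column stands once per condition, so no spread between replicates could be measured, and intervals below cover counting error only. Because the PCR products carried no molecular tag, such intervals treat copies of 1 molecule as separate reads.

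The totals recovered from the genotype table, in units of 1000000 reads, were 39.3 with antibody and 45.1 for input in wild-type, and 37.5 and 51.0 in Mettl3 KO. Lars2 and Rn45s together took 36.5% to 81.0% of them. The targeted gene gave no check of the labels, because the part removed is not given. Its single listed region held 1.71 RPM (reads per 1000000 reads) in the input of wild-type nuclei and 2.47 RPM in that of Mettl3 KO nuclei. Of 14 stem cell markers, 12 had a peak in the 100K E14 list, 10 in the EPSC list and 4 in the MEF list. Of 14 fibroblast markers, 7 had a listed position, and 5 of these had a peak in the MEF list against 1, Fn1, in each of the other 4 lists.

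m6A is placed on RNA in the nucleus by a writer complex whose catalytic subunit is METTL3, and reader proteins then act on the marked RNA. In mRNA the mark is known to favour long internal exons and the region around the stop codon, and less of it is found where exon junctions lie close together. In embryonic stem cells it is known for shortening the life of transcripts of regulators of pluripotency. The proteins of the 4 genes work in different processes. Nufip2 is an RNA-binding partner of the fragile X protein that also enters stress granules. Zbed6 is a transcription factor derived from a DNA transposon, and its gene lies within an intron of Zc3h11a. Mga binds DNA through a T-box and, with MAX, through a helix-loop-helix domain, and holds together a variant Polycomb complex called PRC1.6. Rif1 sets replication timing and protects DNA ends from resection.

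The 4 genes differ in how their listed exons are built. The exon blocks were joined from the wild-type and Mettl3 KO peak calls and the genotype table, with no outside annotation. On mm9, Nufip2 lies at chr11:77499641-77531468 on the plus strand with 4 exon blocks of 10399 bp in all, and 96.1% of that length is in its 2 blocks of at least 500 bp. Zbed6, at chr1:135552456-135557462 on the minus strand, is 1 block of 5007 bp. Mga, at chr2:119728348-119795311 on the plus strand, has 23 blocks of 13800 bp, with 81.3% of the length in 7 blocks of at least 500 bp. Rif1, at chr2:51931625-51982288 on the plus strand, has 33 blocks of 12639 bp. Only 2 of its blocks reach 500 bp, and they hold 70.2% of the length. By listed exonic length the genes ranked 209 (Mga), 240 (Rif1), 379 (Nufip2) and 1800 (Zbed6). No other gene had a listed block inside the 4 spans. Reads from unspliced Zc3h11a RNA across the Zbed6 block cannot be told apart from reads of Zbed6.

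In wild-type nuclei a single call spanned nearly the whole listed block of Zbed6 and every listed exon block of Mga and Rif1. The authors' MeTPeak list, which calls enrichment of m6A-CT over input on joined exons and gives a fold for each peak, held 4 wild-type peaks over Nufip2. The longest took in all 4 blocks and 5850 exonic bp at a fold of 104, and the other 3, all in the last exon, had folds of 19.5, 10.0 and 11.3. Zbed6 had 1 peak of 4957 bp at a fold of 86.5. Mga had 1 peak over all 23 blocks, with 11484 exonic bp and a fold of 81.7. Rif1 had 1 peak over all 33 blocks, with 8043 exonic bp and a fold of 43.0. The genotype table lists only 9 Rif1 regions, and the other blocks are known from the MeTPeak calls themselves. That a call met every Rif1 block is therefore largely by construction. Among the 5838 genes of the wild-type list the ranks were 1, 2, 4 and 69. Rif1 shared its value with 1700020I14Rik, and the next gene below was Atp2b1 at 42.7. Others among the 10 highest were Celsr1 (82.2), Klf9 (77.0), Grik3 (74.0), Adnp (70.0), Gm20716 (70.0) and Fat1 (67.7).

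In Mettl3 KO the same genes still had MeTPeak peaks, at lower folds. Nufip2 had 3 peaks with folds of 12.7, 7.0 and 5.0, covering 6052 exonic bp against 6703 bp in wild-type, and its highest fold was 8.19 times lower. The single Zbed6 call of wild-type was 5 pieces in Mettl3 KO, with folds of 6.67, 12, 2.75, 6.67 and 3.6 and 4218 bp in all, and its highest fold was 7.21 times lower. Mga kept 1 call with the same ends, at a fold of 13.9, which was 5.88 times lower. Rif1 kept 1 call over its 33 blocks, with 7793 bp and a fold of 16, which was 2.69 times lower. The order of the genes turned: Rif1, lowest of the 4 in wild-type, was highest in Mettl3 KO. In the Mettl3 KO list of 4635 genes Rif1 ranked 98, Mga 177, Nufip2 235 and Zbed6 273. For all 4 genes the top fold was thus below that of wild-type, as it was for 76.7% of the 3953 genes with a peak in both lists, whose median wild-type fold was 1.51 times that of Mettl3 KO. Among the 100 genes with the highest wild-type fold, 98 were in both lists, all 98 were lower in Mettl3 KO, and their median was 3.85 times. Rif1 lies below that median and the other 3 above it. Since the wild-type folds chose these genes, nothing further was read from these counts.

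**Figure D1:**
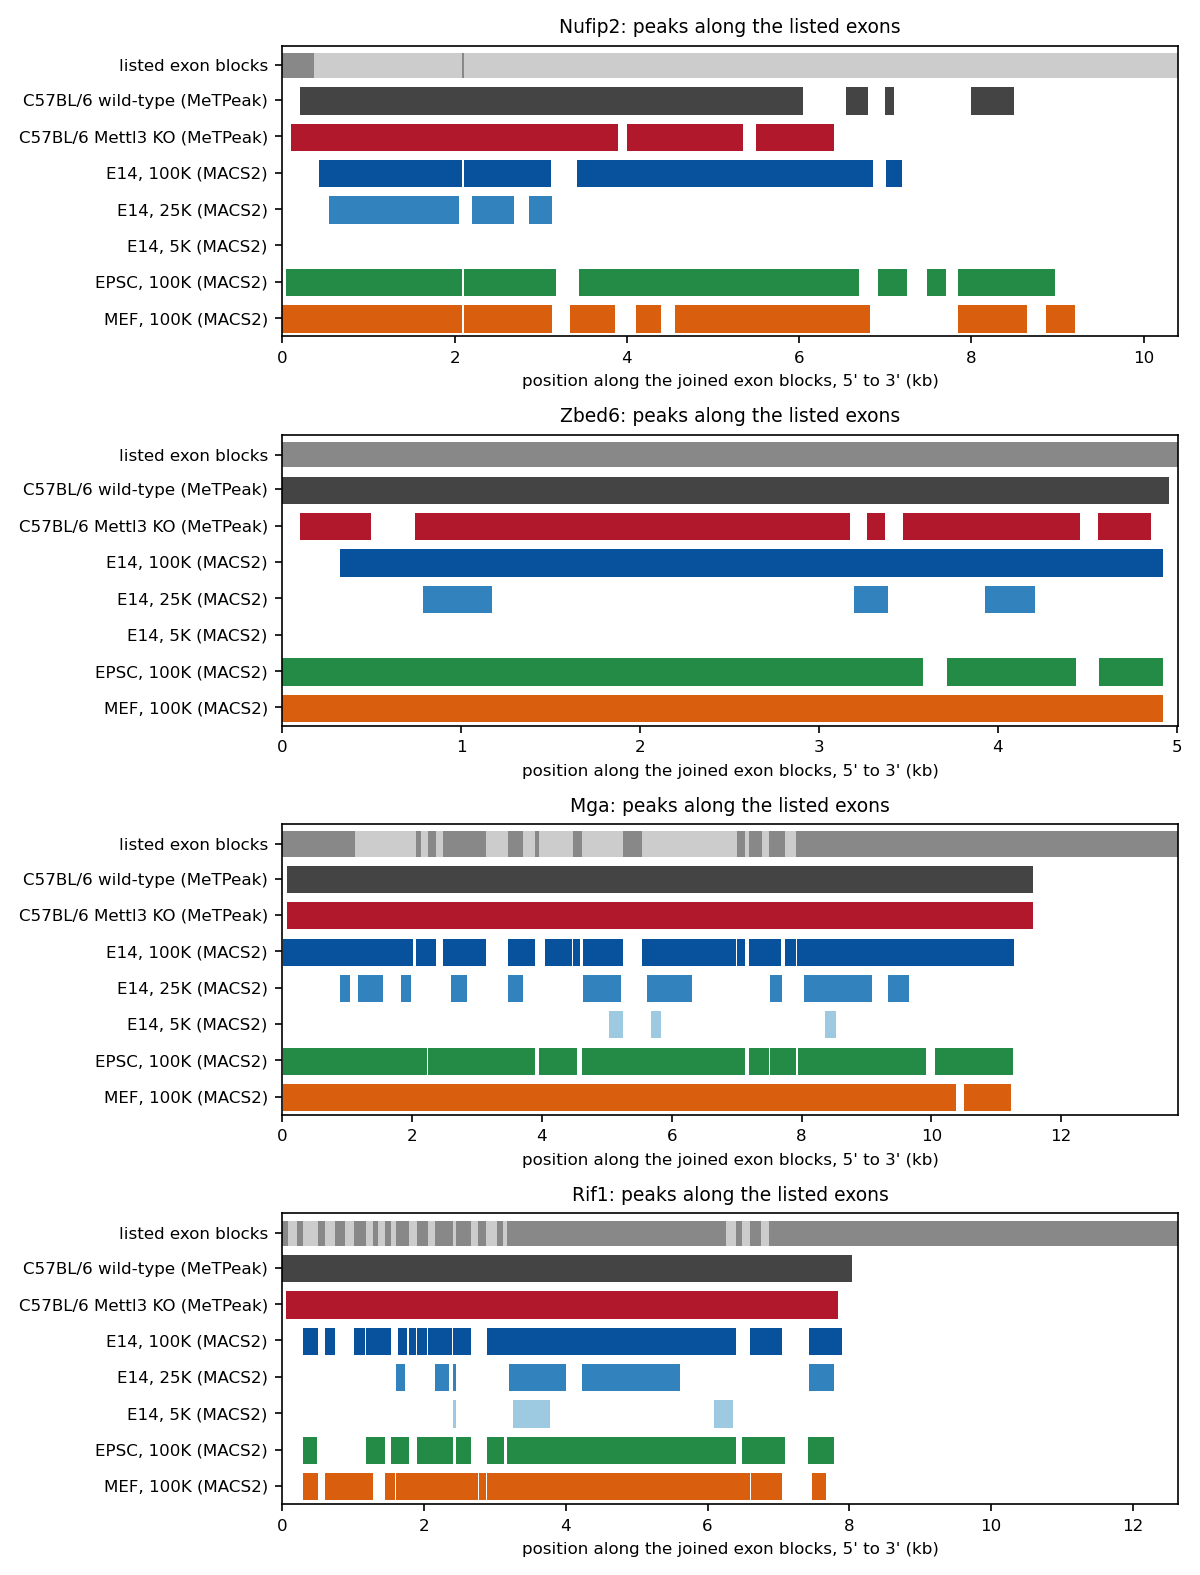
Peaks along the joined listed exon blocks of each gene, 5′ to 3′ in kb, with the blocks in alternating grey and 1 row for each of the 7 mouse peak lists. Zbed6 and most of Mga were covered in the 3 MACS2 lists of 100K nuclei, the lists of 25K and 5K nuclei held fragments, and the 3′ end of every transcript was without a peak.

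The read levels behind these calls were far less extreme than the folds. The genotype table (exomePeak2) gives RPM for each listed region in 4 columns, which were summed over the regions of a gene, so that a read across a junction may count in more than 1 region. Of its 33395 regions with a value, 29724 were called lower and 3667 higher in Mettl3 KO at the authors' FDR under 0.05. Nearly every listed region was thus called, so the sums, medians and shares over genes below cover such regions. With the antibody Nufip2 had 257 RPM in wild-type nuclei against 22.4 RPM in input, and the 2 values were 103 and 17.99 RPM in Mettl3 KO. Its m6A-CT over input ratio was 11.5 (95% counting interval 10.8 to 12.3) in wild-type and 5.75 (5.35 to 6.18) in Mettl3 KO. Zbed6 had 209, 17.1, 40.2 and 7.84 RPM in the same order, which gave ratios of 12.2 (11.4 to 13.2) and 5.13 (4.60 to 5.73). Under the deposited scaling both genes thus had a ratio above 5 in Mettl3 KO, although the interval of Zbed6 reached below 5. Lars2 and Rn45s took 36.5% of the wild-type m6A-CT reads and 76.4% of the input reads, and 54.5% and 81.0% in Mettl3 KO. Leaving them out of the totals would lower every ratio, so its absolute level depends on this scaling.

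Mga was the most abundant of the 4. With the antibody it had 1188 RPM in wild-type nuclei against 93.3 RPM in input, and 378 against 78.7 RPM in Mettl3 KO. Its ratio was 12.7 (12.3 to 13.1) in the first and 4.80 (4.63 to 4.97) in the second. Rif1 had 440, 50.4, 177 and 30.7 RPM, with ratios of 8.72 (8.35 to 9.11) and 5.78 (5.47 to 6.10). In wild-type the interval of Zbed6 overlapped those of Mga and of Nufip2, the interval of Mga lay just above that of Nufip2, and Rif1 was below all 3. In Mettl3 KO the order was Rif1, Nufip2, Zbed6 and Mga, and each neighbouring pair of intervals overlapped. By this ratio the genes were not at the top: among 8784 genes with at least 50 reads they ranked 425 (Mga), 472 (Zbed6), 537 (Nufip2) and 939 (Rif1) in wild-type, where the median ratio was 3.29. In Mettl3 KO, with a median of 1.93, they ranked 466 (Rif1), 470 (Nufip2), 611 (Zbed6) and 716 (Mga). How the MeTPeak fold was computed is not given in the sources used here.

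The log2 change of the ratio from wild-type to Mettl3 KO was -1.41 (-1.48 to -1.34) for Mga, -1.25 (-1.44 to -1.06) for Zbed6, -1.0 (-1.14 to -0.86) for Nufip2 and -0.60 (-0.70 to -0.49) for Rif1. The ratio was lower in Mettl3 KO in 84.9% of the 8784 genes, with a median log2 change of -0.82 and quartiles of -1.32 and -0.33. Relative to that median Mga was at -0.59, Zbed6 at -0.44 and Nufip2 at -0.18, whereas Rif1, at 0.22, changed less than the median gene. The log2 change of the m6A-CT level alone was -2.38 for Zbed6, -1.65 for Mga, -1.32 for Nufip2 and -1.31 for Rif1. Leaving Lars2 and Rn45s out of the totals moved the change of the ratio of all genes up by 0.17 and kept all 4 below 0.

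Input RNA, which the choice of genes did not use by itself, was also lower in Mettl3 KO for these transcripts under the deposited scaling, and for Zbed6 and Rif1 under both scalings tried. The log2 change of Zbed6 input was -1.13 (-1.30 to -0.95), a level 0.458 times that of wild-type. Rif1 was at -0.72 (-0.81 to -0.62), Nufip2 at -0.32 (-0.44 to -0.19) and Mga at -0.25 (-0.31 to -0.18). Over the 8784 genes the median was -0.03, and 51.7% were lower. Without Lars2 and Rn45s in the totals, which moved every gene up by 0.31, Zbed6 (-0.81, -0.99 to -0.64) and Rif1 (-0.40, -0.50 to -0.31) stayed below 0, the interval of Nufip2 held 0 (-0.13 to 0.13) and Mga turned slightly higher (0.07, 0.004 to 0.13). The Rif1 value is a sum over uneven regions. Under the deposited scaling its last exon was at -0.04, on 123 wild-type and 135 Mettl3 KO input reads. Its other listed regions were at -0.42 to -1.03, so the lower input does not hold for the last exon. In these bulk nuclei, fewer cells with a transcript and less RNA per cell cannot be told apart.

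**Figure D2:**
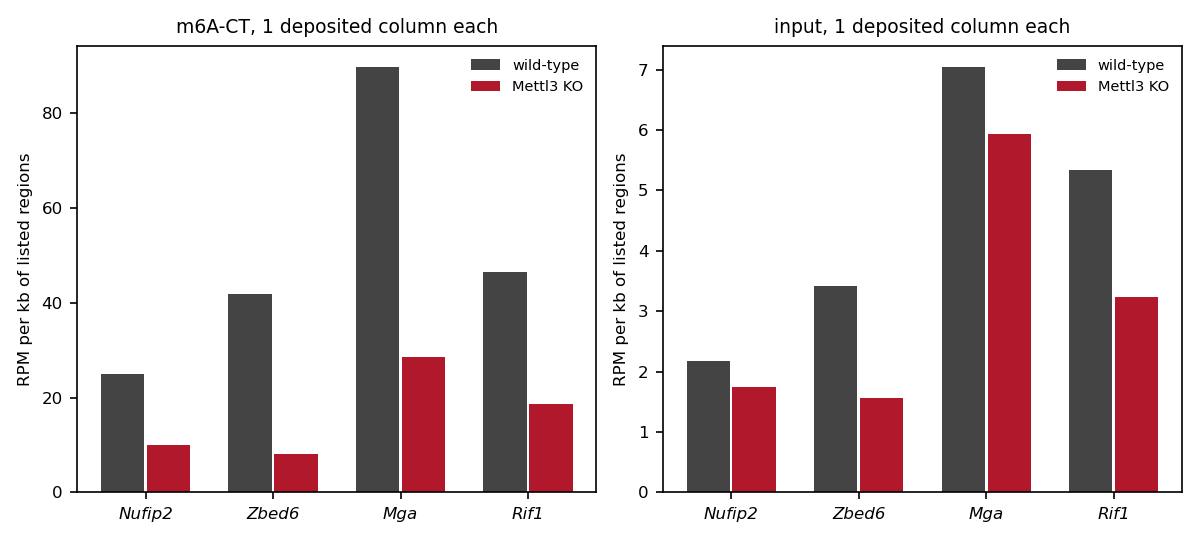
RPM per kb of listed regions in wild-type (dark) and Mettl3 KO (red), with m6A-CT on the left axis and input on the right; each bar is 1 deposited column, so no replicate error is shown. Mga was highest in all 4 columns, at 89.7 RPM per kb in wild-type m6A-CT and 7.05 in wild-type input.

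Per length, the 4 transcripts had input levels from below to well above the median. Wild-type input was 7.05 RPM per kb for Mga (6.84 to 7.26), 5.33 for Rif1 (5.11 to 5.55), 3.42 for Zbed6 (3.19 to 3.67) and 2.17 for Nufip2 (2.04 to 2.31), against a median of 2.50 over the 8784 genes. All neighbours in this order differed beyond counting error. In Mettl3 KO input the order was Mga (5.94), Rif1 (3.24), Nufip2 (1.74) and Zbed6 (1.57), and the intervals of the last 2 overlapped (1.63 to 1.86 and 1.42 to 1.73). Nufip2, first of all genes by the MeTPeak fold, thus had a below-median input level per kb when averaged over its listed regions. These were uneven. Wild-type input was 3.06 RPM over the 350 bp at the 5′ end and 11.95 RPM over the 1700 bp of the second exon. The 8274 bp of the last exon held only 7.36 RPM, so the low average rests on that exon.

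Enrichment was uneven along the multi-exon transcripts. The authors' table splits them into 36 regions, 3 in Nufip2, 1 in Zbed6, 23 in Mga and 9 in Rif1, numbered here from the 5′ end. The authors' deposited table gives all 36 as lower in Mettl3 KO at FDR under 0.05, where 89% of all 33395 regions with a value were called lower and 11% higher, so the count says nothing particular to these genes. On the recovered reads, in a counting test added after the data were seen, 31 of the 36 were lower and none was higher, against 57.6% lower of 30146 regions. The same wild-type libraries chose the genes, so nothing is read from this count. The 5 that did not pass were the first region of Nufip2, region 8 of Mga and regions 1 to 3 of Rif1.

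In Nufip2 the wild-type ratio was 4.44 in the 5′ region, 9.56 in the second exon and 17.6 in the last exon. In Mettl3 KO the 3 ratios were 3.48, 5.04 and 8.0. The log2 change went the same way, at -0.35 in the 5′ region, -0.92 in the middle one and -1.14 in the last exon. The last exon thus had the highest ratio in each genotype. Its change was the largest of the 3, but it differed from that of the second exon within counting error only (standard errors 0.12 and 0.10). The single region of Zbed6, which is the whole listed exon, changed by -1.25.

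In Mga, region 1 had a wild-type ratio of 11.8 and regions 2 to 6 had 14.6 to 17.96. The ratio was only 7.83 to 8.74 in regions 10 to 15, which lie between 27.5% and 39.0% of the joined exons. It was 16.8 in region 16, a long exon of 1450 listed bp, and 19.3 to 25.5 in regions 17 to 21, short exons with 25 to 200 listed bp and 31 to 50 input reads each. Region 22 had 13.1 and the long last exon 17.96. The counting intervals of regions 10 to 15, whose highest bound was 10.3, lay wholly below those of regions 2 to 6 and of regions 16 to 21. In Mettl3 KO the ratio was 3.16 to 4.30 in regions 10 to 15, 4.89 to 6.99 in regions 2 to 6 and 10.2 in region 17. It was less separate there, since the intervals of regions 6 (3.77 to 6.35) and 10 (3.57 to 5.18) overlapped, and the lowest value was 3.02 in region 22. Every Mga region was lower in Mettl3 KO, from -0.44 in region 8 to -2.12 in region 22, and the last exon changed by -1.85 with 9628 wild-type m6A-CT reads behind it.

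In Rif1 the wild-type ratio was higher toward the 3′ end, and so was the size of the change. The 9 regions had wild-type ratios of 2.60, 7.19, 7.09, 8.46, 9.86, 11.7, 13.3, 11.2 and 19.6 in order. In Mettl3 KO they had 2.25, 6.44, 5.78, 6.09, 5.51, 5.64, 6.01, 5.54 and 8.56, so regions 2 to 8 lay close together there. The log2 change was -0.21, -0.16 and -0.30 in regions 1 to 3, each within counting error of 0, then -0.47 in the 3075 bp of region 4, -0.84 to -1.14 in regions 5 to 8 and -1.20 in the last exon. Across the 9 regions, which share the same libraries, Spearman's rho with order was 0.93 for the wild-type ratio, 0.27 for the Mettl3 KO ratio and -0.93 for the change. Mga had no such slope (0.30, 0.06 and -0.36 over 23 regions). In all genes with at least 3 regions the last region had the higher wild-type ratio in 84.6% of 3760, by a median log2 of 0.97, so a higher 3′ end is common. The step from first to last region was 2.92 in Rif1, 1.99 in Nufip2 and 0.61 in Mga. The deposited regions leave out many of the Rif1 exons, since 9 regions stand for 33 blocks.

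**Figure D3:**
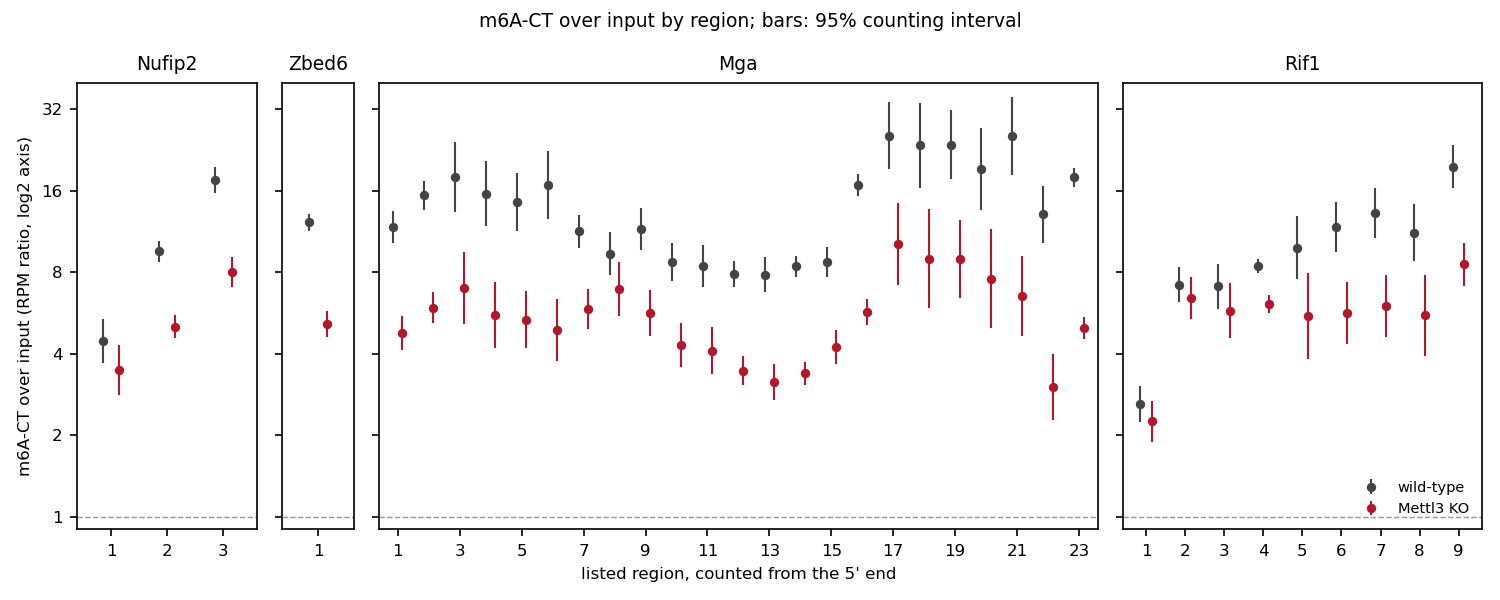
m6A-CT over input by listed region, numbered from the 5′ end, in wild-type (dark) and Mettl3 KO (red) on a log2 axis, with bars for the 95% counting interval of the reads in each column. Wild-type and Mettl3 KO were close in regions 1 to 3 of Rif1 and apart in its last exon (19.6 and 8.56), and Mga had its lowest wild-type ratios in regions 10 to 15.

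The authors' own estimates in the deposited table lay below the RPM-based log2 changes in all 36 regions, by gaps that ranged from -0.53 to -0.21. The authors' deposited table gives a log2 fold change of -1.74 (FDR 3.43e-68) for Zbed6 and of -0.88, -1.37 and -1.45 for the 3 regions of Nufip2. The authors' deposited table gives from -0.79 (region 8) to -2.49 (region 22) for Mga, with -2.28 (FDR 3.66e-137) in its last exon, and from -0.52 to -1.52 for Rif1. The median over all regions of the authors' deposited table was -1.35. Regions 1 to 5 and 8 of Rif1 therefore changed less than the median region, and the last exon of Mga changed more.

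The MACS2 lists used other cells and another antibody than the choice of genes did. They held 177 peaks over the 4 genes, 42 in the E14 list at 100K nuclei, 22 at 25K, 7 at 5K, 49 in EPSC and 57 in MEF. Mga had 16, 10, 3, 21 and 22 peaks in that order, and Rif1 had 21, 6, 4, 18 and 26. Nufip2 had 4, 3, 0, 7 and 8, and Zbed6 had 1, 3, 0, 3 and 1. All 4 genes had a peak in 4 of the 5 lists, and Mga and Rif1 had one in the 5K list too. The share of all 11200 genes with a peak was 19% at 100K in E14, 9.97% at 25K, 14.9% at 5K, 27.4% in EPSC and 39.8% in MEF. Among the 1802 other genes of at least 5000 listed bp it was 48.7%, 27.4%, 37.3%, 60.2% and 77.5%. Their 90th percentile of peaks was 5, 2, 2, 9 and 23, so over all listed blocks Mga and Rif1 lay above it in every list except for Mga in MEF. These counts were not adjusted for length or for the number of blocks, which is 23 in Mga and 33 in Rif1.

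The numbers of peaks cannot be read as levels between cell types, because the lists differ in length, from 3923 peaks at 25K to 38205 in MEF. With every list cut to its strongest 3923 peaks the genes kept 28 peaks in E14 at 100K, 22 at 25K, 6 at 5K and 28 in EPSC, but 3 in MEF, so that the order of E14 and MEF turned. The count of Rif1 also rests on blocks that are in the MeTPeak lists only, and the wild-type list chose the genes. Over the blocks of the exomePeak2 table alone Rif1 had 7 peaks in E14 at 100K, 4 at 25K, 2 at 5K, 7 in EPSC and 8 in MEF. Mga kept 16, 10, 3, 21 and 22. By these counts Rif1 was not above the percentiles of the other long genes at 5K, in EPSC or in MEF. The percentiles were not computed again on those blocks.

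The share of listed exons inside peaks shows how far each transcript was covered. Zbed6 was covered over 91.9% of its length in E14 at 100K, 93.03% in EPSC and 98.3% in MEF. Mga followed with 73.3%, 78.7% and 80.4%, Nufip2 with 60.3%, 77.1% and 70.3% and Rif1 with 49.4%, 46.6% and 52.5%. The 90th percentile of the other long genes was 31.97%, 47.3% and 88.1%, so all 4 were above it in E14, all but Rif1 in EPSC and only Zbed6 in MEF. At 25K nuclei coverage was 29.3% for Mga, 22.9% for Rif1, 21.8% for Nufip2 and 17.1% for Zbed6. At 5K nuclei it was 3.8% for Mga and 6.54% for Rif1, and no peak remained on Nufip2 or Zbed6. With 1 list per number of nuclei, no test of this order was possible.

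**Figure D4:**
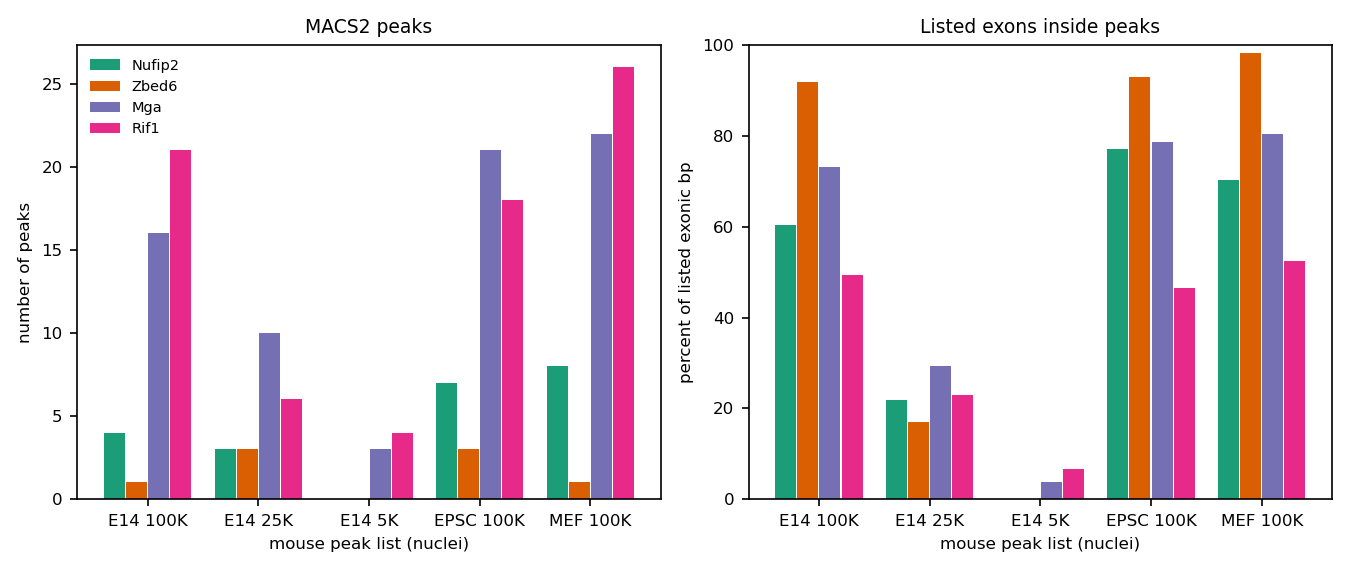
Number of MACS2 peaks (left) and percent of listed exonic bp inside them (right) for each gene in the 5 mouse lists, by cell type and number of nuclei; each bar is 1 list. Rif1 and Mga had the most peaks at 100K nuclei, and Zbed6, with 1 to 3 peaks, had the highest share of its length inside them.

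The fold of a MACS2 peak is the authors' value at its summit. The highest fold on Nufip2 was 13.1 in E14 at 100K, 9.23 at 25K, 15.1 in EPSC and 9.69 in MEF. On Zbed6 it was 7.57, 7.99, 10.4 and 9.23 in the same lists, and on Mga 18.02, 13.0, 13.8 and 14.5. Rif1 reached 21.2, 8.81, 30.1 and 14.3. In EPSC Rif1 ranked 6 of the 3068 genes with a peak by this fold, although it was the lowest of the 4 genes by the wild-type MeTPeak fold. The median fold of the genes' peaks was 6.76 in E14 at 100K against 6.33 over the whole list, 7.48 against 5.20 in EPSC and 7.27 against 4.44 in MEF. At fewer nuclei it was below that of the list, with 5.43 against 6.72 at 25K and 4.24 against 6.01 at 5K.

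Some long exons lay under a single unbroken peak and others were broken up. Zbed6 lay under a single peak of 4601 bp in E14 at 100K and under one of 5381 bp in MEF that ran past the 5′ end of its block. In EPSC and at 25K it had 3 peaks, the longest of 3614 bp in EPSC. The 3090 bp exon 27 of Rif1 was matched end to end by 1 peak of 3132 bp in E14 at 100K, 3126 bp in EPSC and 3153 bp in MEF, with folds of 6.12, 16.3 and 8.52. It also had peaks at 25K and at 5K, none of which spanned it. The 8284 bp last block of Nufip2 held 3 separate peaks in E14 at 100K, 5 in EPSC and 6 in MEF, and the last block of Mga held 1, 2 and 2. The 5777 bp last exon of Rif1 held 2 short peaks in each of these lists, the longest of 476 bp. In Mga, blocks 14, 16 and 23 had a peak in all 5 lists, and they measure 624, 1469 and 5884 bp. Every block of at least 500 bp in the 4 genes had a peak in each of the 3 lists of 100K nuclei. Of the genes' peaks, 19.1% in E14 at 100K, 20.4% in EPSC and 14.0% in MEF reached 1000 bp, against 6.89%, 6.25% and 6.81% of those lists.

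At 100K nuclei most of the short exons of Mga and Rif1 met a peak. Of the 16 Mga blocks under 500 bp, 11 had a peak in E14 at 100K, 14 in EPSC and 16 in MEF. Of the 31 such blocks of Rif1, 20, 17 and 25 had one. At 25K only 2 and 3 of them did, and at 5K 0 and 2. In these 3 lists of 100K nuclei, both ends lay within 100 bp of exon ends for 14 of 16 Mga peaks in E14 at 100K, 18 of 21 in EPSC and 19 of 22 in MEF, and for 18 of 21, 15 of 18 and 24 of 26 Rif1 peaks. An exon shorter than 200 bp meets this rule nearly by construction. At 25K it held for 3 of 10 Mga and 3 of 6 Rif1 peaks, at 5K for 0 of 3 and 2 of 4, and for Nufip2 for 1 of 4, 2 of 7 and 2 of 8 peaks at 100K in E14, EPSC and MEF and 0 of 3 at 25K. Between the exons, 1 peak in the E14 list at 100K lay inside the Mga span (520 bp, 6.9-fold) and 1 in EPSC inside the Nufip2 span (316 bp, 5.06-fold), and no other list had one over the 53164 bp, 38025 bp and 21429 bp between the blocks of Mga, Rif1 and Nufip2.

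The peak with the highest fold in Rif1 met a short exon in 4 of the 5 lists. Exon 19, of 265 bp, had the highest fold of the gene in E14 at 100K (21.2) and in EPSC (30.1), with 8.64 at 25K and 9.76 in MEF. Exon 31, of 154 bp, had 16.1, 11.02 and 14.3 in E14 at 100K, EPSC and MEF, and exon 15, of 181 bp, had 20.9 in EPSC. The last exon of 5777 bp had 17.5 in E14 at 100K and 16.8 in EPSC, both above exon 31. In EPSC it was below exons 15 and 19, and it had 8.34 in MEF. The top peak of Rif1 thus met the same exon in E14 at 100K and in EPSC, and other exons in the other 3 lists. These were the last exon at 25K (8.81), exon 20 at 5K (7.67) and exon 31 in MEF. At 5K the summit of that peak lay outside the listed blocks. In Mga the top was block 7 (659 bp) in E14 at 100K, block 9 (224 bp) at 25K, block 16 at 5K, the last block in EPSC and block 18 (52 bp) in MEF. In Nufip2 it was block 2 (1713 bp) in E14 at 100K and the last block in the other 3 lists with a peak.

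Several stretches had no peak. At the 5′ side, Rif1 exons 1, 2, 3 and 5 had none in any of the 5 MACS2 lists, although the wild-type MeTPeak call ran over them. In the other 3 genes peaks of at least 1 such list began in the first block. The internal block 3 of Nufip2, of 33 bp, had none either. At the 3′ end, the furthest peak of all 7 lists stopped at 63.6% of the listed length of Rif1, leaving 4596 bp of its last exon bare. Peaks reached 83.8% of Mga, leaving 2241 bp, 88.5% of Nufip2, leaving 1192 bp, and 99.0% of Zbed6, leaving 50 bp. How much RNA covered these last stretches was not measured, because the table gives the last exon as a single region. Over that whole region wild-type input was sparse in 2 genes. Rif1 had 2.73 RPM over 5764 bp there, against 28.3 RPM over the 3075 bp of region 4. Nufip2 had 7.36 RPM over 8274 bp, against 11.95 RPM over the 1700 bp of its second exon. Whether this bears on the bare ends was not tested. The middle of the median peak in E14 at 100K lay at 24.8% of the joined exons, or at 54.0% of the genomic span. Of the 42 peaks behind it, 16 were on Mga and 21 on Rif1, and a long peak counted once like a short one. The median is thus no measure of where the covered length lies.

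The genes with the most similar numbers of peaks over the 7 lists, by Euclidean distance on log2(peaks + 1), were Lamc1 (0.84), Rif1 (0.88) and Eif3a (0.98) for Mga, and Eif3a (0.84), Lamc1 (0.86) and Mga (0.88) for Rif1. Mga and Rif1 were thus in each other's nearest 3. For Nufip2 they were Pum2 (0.96), Picalm (1.23) and Akap8 (1.42), and for Zbed6 Top1 (0.79), Zfp809 (1.10) and Zwilch (1.11).

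Genes that work with the 4 were taken from lists and compared through the region with the most reads, for which the authors' deposited table calls 87.5% of 10224 genes lower in Mettl3 KO and 12.5% higher at FDR under 0.05, with a median log2 fold change of -1.33. Zc3h11a, a zinc finger protein of mRNA export and the host of Zbed6, had a ratio of 11.1 in wild-type nuclei against 3.77 in Mettl3 KO, and the authors' deposited table gives it a log2 fold change of -2.36 (FDR 8.33e-43). Its input over its own listed exons was 24.1 RPM in wild-type nuclei against 20.5 in Mettl3 KO, beside 17.1 and 7.84 RPM for Zbed6. Of the 4 genes of that list in the table, 3 were called lower, with Zbed4 at -1.79 and Zbed5 at -1.15 in the authors' deposited table, and Zbed3, at 3.02, was called higher on 68 reads in all.

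Of 15 PRC1.6 genes in the table, which work with Mga, 14 were called lower and 1 higher, with a median of -0.77 in the authors' deposited table. The one called higher there was Tfdp1, at 1.03 on 249 reads in all. In the authors' deposited table the methyltransferase Ehmt2 was at -0.57, the scaffold L3mbtl2 at -1.07, the RING1-binding Rybp at -0.61 and Wdr5 at -0.76. Their ratios were low beside that of Mga, with 1.62 in wild-type nuclei against 1.58 in Mettl3 KO for Ehmt2. All 5 genes of the MYC network in the table were called lower, with a median of -1.20 in the authors' deposited table, among them Mycn (-1.20), Mnt (-0.50), Mlxip (-1.66) and Mxi1 (-1.10).

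Of 12 genes that work with Rif1, 9 were called lower and 3 higher, with a median of -1.05 in the authors' deposited table. Among those called lower, 1 rested on 16 reads in all, with none in wild-type input. Rev3l, the catalytic subunit of a translesion polymerase, had a higher wild-type ratio than any of the 4 genes (18.5, and 9.60 in Mettl3 KO) and stood at -1.21. The kinase activator Dbf4 was at -1.12, the repair scaffold Trp53bp1 at -1.01 and the helicase subunit Mcm4 at 0.31 in the authors' deposited table. The others called higher there were the phosphatase subunit Ppp1ca (0.47) and Shld1 (1.67, on 145 reads in all), a subunit of shieldin. Of 11 genes around Nufip2, 7 were called lower and 4 higher, with a median of -1.01 in the authors' deposited table. The authors' deposited table gives -1.77 for Usp10, -1.01 for G3bp1 and -1.28 for G3bp2, which belong to stress granules, and -1.49 for the decapping helicase Ddx6. The 4 called higher were Cyfip1, Fxr1, Fmr1 and Rc3h2. Both lists had a smaller share called lower than the 87.5% of all genes, with no test of that difference.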

How the data were processed

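The submitters' processing notes name Trim Galore, STAR 2.7.2 and MACS2, and mm9 for mouse; the 5 mouse peak lists are in MACS2 format. In these lists the deposited values are a fold ratio at the summit and -log10 p and -log10 q (at least 10). In the 2 MeTPeak lists the deposited values are a fold ratio, log10 of p and FDR, and other columns of exon blocks. The deposited exomePeak2 table holds RPM in 4 columns, the authors' log2 fold change and their p-value with FDR. Settings, and whether replicates were pooled, are not given in the sources used here.

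Reads were recovered from RPM (99.994% of values whole within 0.01 reads), and no pseudocount was added. Ratios carry 95% Poisson-based intervals. Peaks were joined to exon blocks (at least 1 bp) with bedtools 2.31.1, in Python 3.11.15 with pandas 2.3.3, numpy 2.4.6 and scipy 1.17.1. The counting step was tested on simulated data. The members and lists were chosen with earlier results of these data known. Named around the members were the 10 genes with the highest wild-type MeTPeak fold (1 is not reported here), the 3 nearest by numbers of peaks, and up to 4 genes per list by reads, plus those called against the list's direction. Sequences, the human list and replicate values were not used here.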

Additional observations from a re-analysis of the deposited data

How the results depend on the processing

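No paired analysis was possible because each list and column is filed once per condition, without values per replicate; leaving out a replicate could not be done for the same reason. At -log10 q of at least 20 the E14 lists kept 27, 9 and 1 peaks over the genes, from most to fewest nuclei. With lists of equal length the total was 87, with 28 in EPSC and 3 in MEF. The wild-type over Mettl3 KO MeTPeak fold was 8.996 for Nufip2 and 9.17 for Zbed6 by a mean weighted by length, and 2.20 and 13.0 by the median over peaks. The log2 change of the ratio was -1.85 for Mga and -0.47 for Rif1 in the region with the most reads. Without Lars2 and Rn45s it was -0.83 for Nufip2, -1.24 for Mga and -0.43 for Rif1. The read-weighted mean of the authors' deposited table was -1.37 for Nufip2, -1.74 for Zbed6, -1.76 for Mga and -0.97 for Rif1. Without Lars2 and Rn45s the log2 change of input was -0.002 for Nufip2, -0.81 for Zbed6, 0.066 for Mga, which turned its direction, and -0.40 for Rif1; in the region with the most reads it was -0.88 for Rif1. On the genomic span the median peak lay at 54.0%. Beyond what each setting leaves out, the cause of these moves was not tested. The other 57 values kept their direction and stayed within the range set for a move. Some of them could not move. Mga and Rif1 had 1 MeTPeak call in each genotype, and every listed region of the genes had at least 50 reads. Also among the 57, the total over the exomePeak2 blocks alone was 130 peaks, although that of Rif1 moved by over 1.5 times in 4 of 5 lists. Depth limits the short Mga exons and Rif1 regions 5 to 8 most, with 31 to 93 wild-type input reads in the regions concerned.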
